A study of Homo sapiens and Mus musculus with 4 samples.

Results

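ATF4 binding at 7 genes of red cell development was examined in a human leukaemia line and in mouse bone marrow. The genes were KLF1, NFE2 and BCL11A, which encode transcription regulators, EPOR and TFRC, which encode receptors, and SLC4A1 and ANK1, which encode proteins of the red cell membrane. They were chosen by name, and a peak was taken as theirs where it overlapped the gene span extended by 20 kb on each side, the window used for every KG1a count here unless another is given. On that rule 0 of the 873 KG1a peaks belonged to the 7 genes. In mouse, 33 of the 83088 peaks, 0.0397% of the list, lay within 50 kb of the approximate positions of 3 of the orthologues, Klf1, Epor and Slc4a1. The orthologues of the other 4 genes were not placed on the mouse genome here.

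The study precipitated chromatin with an anti-ATF4 antibody (Abcam) from KG1a cells, an acute myeloid leukaemia line grown with 20% serum, and from C57BL/6 mouse bone marrow. Per source there was 1 ATF4 ChIP library and 1 input library made without antibody, and the authors deposited 1 list of peaks per source. No genotype, treatment, age or sorting of the marrow is given in the labels, so these cells were taken as unsorted marrow whose share of red cell precursors is unknown. KG1a is an immature myeloid line and not a red cell model. Lists of intervals carry no expression, so neither label could be checked against marker genes. The lists hold no read counts, heights or scores, the depth is unknown, and with 1 library per group no value below has a replicate check.

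ATF4 is a leucine zipper transcription factor whose protein rises when phosphorylation of eIF2 slows translation in general. In red cell precursors one kinase that does this is HRI, the product of EIF2AK1, which is switched on when haem runs short. Red cell development itself runs through erythropoietin and its receptor, through GATA1, KLF1 and NF-E2 as regulators of the globin and membrane genes, and through iron uptake by the transferrin receptor. BCL11A silences the fetal globin genes in adult red cell precursors.

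The sequences before the starts of KLF1 and EPOR are shown because these genes, for the master regulator and the hormone receptor, lie on the same chromosome arm and had the same nearest KG1a peak. Each is the stretch of 250 bases before the transcription start on the strand of the gene (RefSeq, GRCh38.p14), at chr19:12887202-12887451, minus strand, for KLF1 and at chr19:11384315-11384564, minus strand, for EPOR. Capitals mark a match to any of 5 motifs, searched on both strands. They were TGATGNAA, a core of the joint ATF and C/EBP element, and TGACGTCA, the cyclic AMP response element. The others were AGATAA, a form of the GATA factor site, CCACACCC for KLF1 and the NF-E2 element.
KLF1: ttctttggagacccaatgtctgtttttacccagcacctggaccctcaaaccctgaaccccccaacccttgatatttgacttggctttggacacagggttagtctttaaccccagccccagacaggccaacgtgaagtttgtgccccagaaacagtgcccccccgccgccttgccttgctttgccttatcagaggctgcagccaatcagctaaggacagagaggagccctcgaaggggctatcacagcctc
EPOR: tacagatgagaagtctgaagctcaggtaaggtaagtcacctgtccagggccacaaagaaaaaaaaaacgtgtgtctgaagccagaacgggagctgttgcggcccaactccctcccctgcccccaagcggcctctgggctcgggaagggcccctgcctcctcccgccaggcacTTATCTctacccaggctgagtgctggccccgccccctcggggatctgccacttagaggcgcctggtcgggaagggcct

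The EPOR sequence held the reverse complement of AGATAA from 78 to 73 bases before the start, and the KLF1 sequence held none of the 5 motifs. Other forms of the GATA site were not searched, so no lack of GATA sites in KLF1 is shown. The KLF1 sequence holds ttatca and ctatca, which read TGATAA and TGATAG on the other strand. RefSeq sequences were matched for 4 of the 7 genes, KLF1, EPOR, TFRC and BCL11A, and the EPOR match was the only one among them. Over the same 250 bases of 15842 protein-coding genes, AGATAA was present in 6.84%, TGATGNAA in 2.21%, TGACGTCA in 2.32%, CCACACCC in 3.08% and the NF-E2 element in 0.0884%. These shares are given as a description, and 1 match among 4 sequences shows nothing particular to these genes. The 4 sequences differed in composition. G and C made up 74.4% of the TFRC sequence, which held 29 CpG dinucleotides, and 53.2% of the BCL11A sequence, which held 5. The BCL11A sequence precedes the start that the RefSeq table gives at 60528535, which lies inside the gene span given below and not at its end. KLF1 had 55.2% and 4 CpG, EPOR had 62.0% and 10, and the medians over all genes were 62.4% and 17.

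The first comparison, KG1a ATF4 ChIP against KG1a input, asked where ATF4 sat in the leukaemia cells. Of the 7 erythroid genes, 0 had a listed peak in the gene span plus 20 kb, where 3.98% of the 20037 protein-coding genes had one. The 7 windows together covered 698 kb, a length in which the mean density of the list would place 0.199 peaks, so a count of 0 cannot show a deficit. Distances to the nearest peak ranged from 47.9 kb to 4.27 Mb with a median of 789 kb. The median over the 19974 protein-coding genes on chromosomes with a peak was 961 kb, with an interquartile range of 355 to 2286 kb. Narrower flanks of 0 and 5 kb left the count at 0, where 2.26% and 2.77% of all genes had a peak, and so did the demand that at least 50% of the peak lie inside the window (3.97% of all genes). Wider flanks of 50 and 100 kb gave 1 of 7, the gene SLC4A1, against 6.25% and 9.93% of all genes. Within 1 Mb of the gene, a distance added after the data were seen, 5 of the 7 (71.4%) had at least 1 peak, against 51.2% of all protein-coding genes. KLF1 and EPOR shared a peak there and are not separate observations.

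SLC4A1, which encodes band 3, the chloride and bicarbonate exchanger of the red cell membrane, was the member with the nearest peak. The gene spans chr17:44248390-44268135 (GRCh38, as are all KG1a positions), and a peak of 322 bp at chr17:44200209-44200530 lay 47.9 kb below its low-coordinate end. Of all protein-coding genes, 6.07% had a peak at this distance or nearer. The peak was not next to SLC4A1. It lay 0.325 kb from ATXN7L3, which encodes a subunit of a histone deubiquitinase module, and inside the long non-coding RNA gene ATXN7L3-AS1. UBTF, the gene of a ribosomal RNA transcription factor, stood between this peak and SLC4A1. Among the widest 25% of KG1a peaks the nearest to SLC4A1 was 1921 kb away.

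ANK1 encodes ankyrin, which ties band 3 to the spectrin skeleton. Its span of 244 kb on chromosome 8, 41653225 to 41896741, was the longest of the 7 and gave the longest window, 284 kb. The nearest peak nevertheless lay 3.52 Mb away, in ASH2L, at 38128690 to 38129231 of that chromosome. Of all protein-coding genes, 84.4% had a peak at this distance or nearer. The 2 membrane genes therefore stood near opposite ends of the order of distances.

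Among the regulators, KLF1, a zinc finger activator of adult beta-globin and many other red cell genes, spans chr19:12884422-12887201. Its nearest peak, 374 bp wide, lay 789 kb away at chr19:12094601-12094974, with 30 protein-coding genes between them. BCL11A spans chr2:60450520-60553924, and its nearest peak, at chr2:59884704-59885035, lay 565 kb away in a stretch where the closest protein-coding annotation was 517 kb from the peak. Both were nearer than the median of all genes. NFE2, which encodes the large subunit of NF-E2 and is itself a leucine zipper protein, spans chr12:54292111-54301015. Its nearest peak lay 4.27 Mb away, in RACGAP1, at chr12:50025438-50025965, and 100 protein-coding genes stood between them. NFE2 was the farthest of the 7, with 87.9% of all genes as near or nearer to a peak.

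For the receptors the distances were alike. EPOR, the erythropoietin receptor gene, spans chr19:11377207-11384314, and its nearest peak was the one nearest to KLF1, 710 kb away on the high-coordinate side, with 21 protein-coding genes between. TFRC, the gene of the transferrin receptor that brings iron into red cell precursors, spans chr3:196049284-196082090. Its nearest peak lay 848 kb away inside XXYLT1, at chr3:195200677-195201029. KLF1, EPOR, TFRC and BCL11A thus lay between 565 and 848 kb from a peak. Of all genes, between 35.2 and 46.3% had a peak as near, so these 4 lay on the nearer side of the median of all genes without standing apart. Among the widest 25% of KG1a peaks KLF1 and EPOR kept their nearest peak, but the nearest lay 25623 kb from TFRC and 3023 kb from BCL11A, where the median over all genes was 3817 kb.

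**Figure D1:**
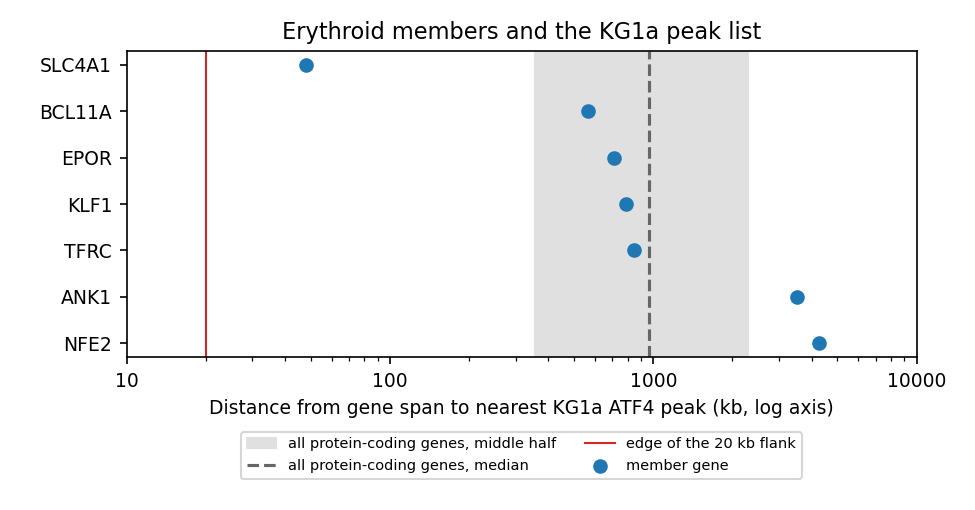
Distance in kb (log axis) from the span of each of the 7 erythroid genes to the nearest edge of a KG1a ATF4 peak, 1 point per gene, with the interquartile range (grey) and median (dashed) of all protein-coding genes and the edge of the 20 kb flank (red). All 7 points lie beyond 20 kb, and SLC4A1 at 47.9 kb stands apart from the other 6, which start at 565 kb.

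A further list of 71 red cell genes was examined in the same way. Of these, 5 had a KG1a peak in the gene span plus 20 kb, 7.04% against 3.98% of all protein-coding genes. The list was chosen with earlier results of these data known and the count is small, so this difference is not read as a trait of red cell genes. The median distance was 887 kb in the list and 961 kb over all genes. Of the 5, MYB, STOM and STAT5B had the peak inside the gene, 4.23% of the 71 against 2.26% of all genes. STAT5A and STAT5B are neighbours that shared a peak and are not separate observations. Among the widest 25% of KG1a peaks 1 of the 71 genes, STAT5A, and 0 of the 7 had one in the window, where 1.12% of all genes had a peak.

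The 8 genes of erythropoietin and stem cell factor signalling held 2 of the 5, the neighbours STAT5A and STAT5B. For this and each group below, the share to set beside the count is the 3.98% of all protein-coding genes. In groups this small a count of 0, 1 or 2 shows nothing particular to the group, and the 2 here share a peak. STAT5B, one of the paired transcription factors that erythropoietin activates, had a peak at chr17:42269663-42270013, inside the gene and 6.55 kb downstream of the start in the RefSeq table, which itself lies inside the gene span. STAT5A, the other of the pair, had this peak in its window and a second at chr17:42327346-42327726, 15.4 kb beyond its high-coordinate end. Whether another gene holds this second peak was not examined. CISH, a feedback inhibitor induced by STAT5, and KIT, the stem cell factor receptor gene, were outside the window, with peaks at 36.7 and 38.4 kb. The kinase gene JAK2 lay 689 kb and the hormone gene EPO 1312 kb from a peak.

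Transcription regulators had 1 of 15 with a peak. It was MYB, a factor that holds precursors in an immature state, with a peak of 327 bp at chr6:135201569-135201895, inside the gene and 20.4 kb downstream of its start. GATA1, the central regulator of the lineage, lay on chromosome X, where the nearest peak was 15554 kb away, the largest distance of the list. TAL1 lay 3107 kb and LMO2 249 kb from a peak. Membrane skeleton and surface genes also had 1 of 15, STOM, the gene of stomatin, with a peak at chr9:121349851-121350205 inside the gene. SPTB, a spectrin gene, lay 1501 kb from a peak.

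Haem genes had 1 of 13. It was SLC25A38, which encodes the mitochondrial glycine carrier that feeds haem synthesis, with a peak at chr3:39365711-39366034, 17.3 kb upstream of the gene. ALAS2, the gene of the first enzyme of the pathway in red cells, lay 9317 kb from a peak on chromosome X. This was also the peak nearest to GATA1, so the distances of these genes are not separate observations. Of the 9 globin and globin chaperone genes, 0 had a peak in the window. The alpha-globin genes HBA1 and HBA2 lay 185 and 189 kb from 1 shared peak, and HBB, in the beta-globin cluster, lay 1389 kb from another. Iron handling genes had 0 of 6, the nearest being FTH1, the ferritin heavy chain gene, at 77.2 kb. The remaining 5 genes had 0, and EIF2AK1, the HRI gene, lay 597 kb from a peak. Members of each globin cluster share a locus and are not separate observations.

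**Figure D2:**
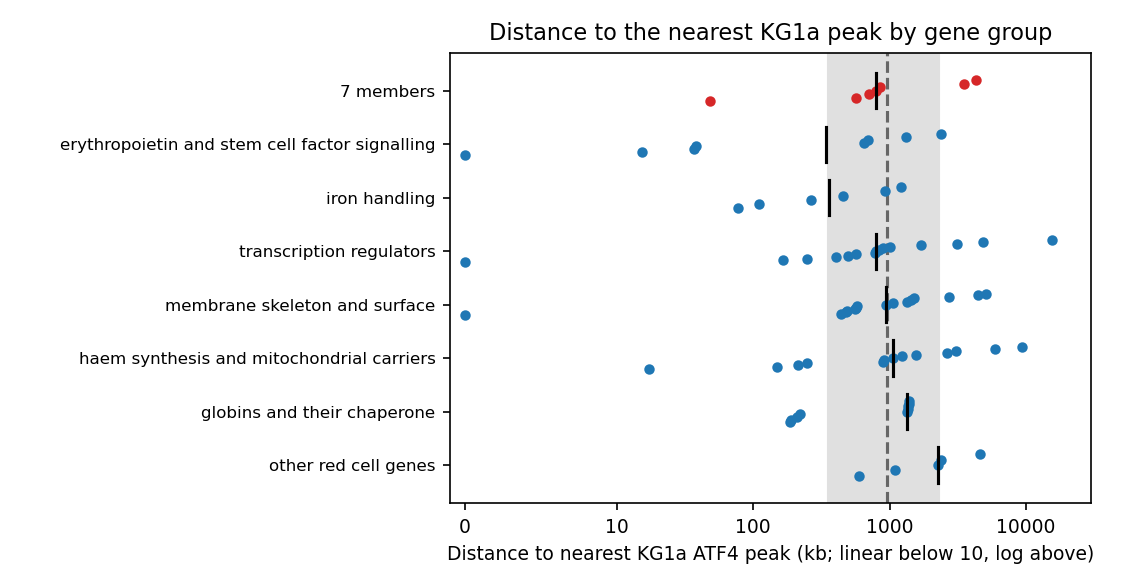
Distance in kb from each gene to the nearest KG1a ATF4 peak (linear below 10 kb, log above), for the 7 erythroid genes (red) and for the 71 further red cell genes by group (blue), with group medians (black bars) and the median (dashed) and interquartile range (grey) of all protein-coding genes. The 3 points at 0 are STAT5B, MYB and STOM, and the medians run from 342 kb for the signalling genes to 2271 kb for the other red cell genes.

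The second comparison set the ATF4 ChIP library of mouse bone marrow against its input and asked where ATF4 sat in tissue that makes red cells. The 3 loci that could be placed differed in how many peaks surrounded them and where these stood. Positions are known here only to about 0.01 Mb, so windows of 100 kb centred on them were used, and no peak was assigned to a promoter, exon or intron. These windows may hold other genes too. The chromosome windows set beside them were tiled from the first base, whatever genes they held, and not centred on genes. The shares below therefore do not compare the 3 loci with other genes. The Slc4a1 window held 15 peaks, the Klf1 window 11 and the Epor window 7. A window with at least 1 peak is common in this list, 86.5% on chromosome 8, 88.9% on chromosome 9 and 86.7% on chromosome 11, so the presence of peaks says nothing about these genes, and only their number and layout are described.

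Of the 3 loci, Slc4a1 stood in the densest surroundings. Its window, chr11:102300001-102400000 (GRCm38, as are all mouse positions), held 15 peaks of 275 to 1736 bp, and they covered 12.6% of the bases. The median window of chromosome 11 held 4 peaks and had 2.76% covered. Of the 1219 windows of that size on the chromosome, 18, or 1.48%, held as many. Of the 15 peaks, 6 (40.0%) were at least 1 kb wide, beside 26.4% of all peaks on the chromosome. With so few peaks, some of them close together, this share is not read as a trait of the locus. The nearest peak below the approximate gene position was one of 974 bp at chr11:102343102-102344075. Above it the nearest was one of 603 bp at chr11:102352109-102352711, followed by one of 275 bp at chr11:102354111-102354385. These peaks above the approximate position lay closer to it than the peak below. A run of 6 peaks, each less than 1 kb from the next, extended over 8.61 kb at chr11:102383617-102392222 and contained the widest of the window. This run lay 33.6 to 42.2 kb above the approximate gene position. The megabase around the position held 101 peaks, where the median megabase of chromosome 11 held 41 and 0 of its 121 fixed megabase windows held as many.

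Around Klf1 the peaks were fewer than around Slc4a1. At all 3 loci more peaks lay 20 to 50 kb from the position than within 20 kb, and that outer part is the larger part of the window. The window chr8:84850001-84950000 held 11 peaks with 11.4% of its bases covered, against medians of 3 peaks and 2.16% for chromosome 8. Of the 1292 windows of the chromosome, 3.79% held as many peaks. The coverage came mainly from 2 wide peaks above the gene position, of 3906 bp at chr8:84922579-84926484 and of 3563 bp at chr8:84932523-84936085, and these accounted for 65.7% of the covered bases. The other 9 peaks were 311 to 665 bp wide. A stretch of 36.9 kb around the approximate position of Klf1 held no peak, between a peak ending 19.2 kb below and one starting 17.6 kb above. Gaps of that length or longer made up 24.1% of the gaps on the chromosome and 72.9% of its length, so a position on chromosome 8 commonly falls in one.

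Epor lay at the edge of a long peak-free stretch. The window chr9:21910001-22010000 held 7 peaks, all below the approximate gene position, and 0 above it. They were 276 to 882 bp wide, 0 reached 1 kb, and they covered 3.63% of the window against a median of 2.55% for chromosome 9. Of the 1241 windows of the chromosome, 19.6% held as many peaks. The closest peaks were a pair of 340 and 360 bp at chr9:21950562-21951845, the second ending 8.16 kb below the position. Above it the next listed peak started 106 kb away, at chr9:22065764-22066185. The gap of 114 kb between them was as long as or longer than all but 3.87% of the gaps on the chromosome, although gaps of at least this length made up 24.7% of its bases.

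**Figure D3:**
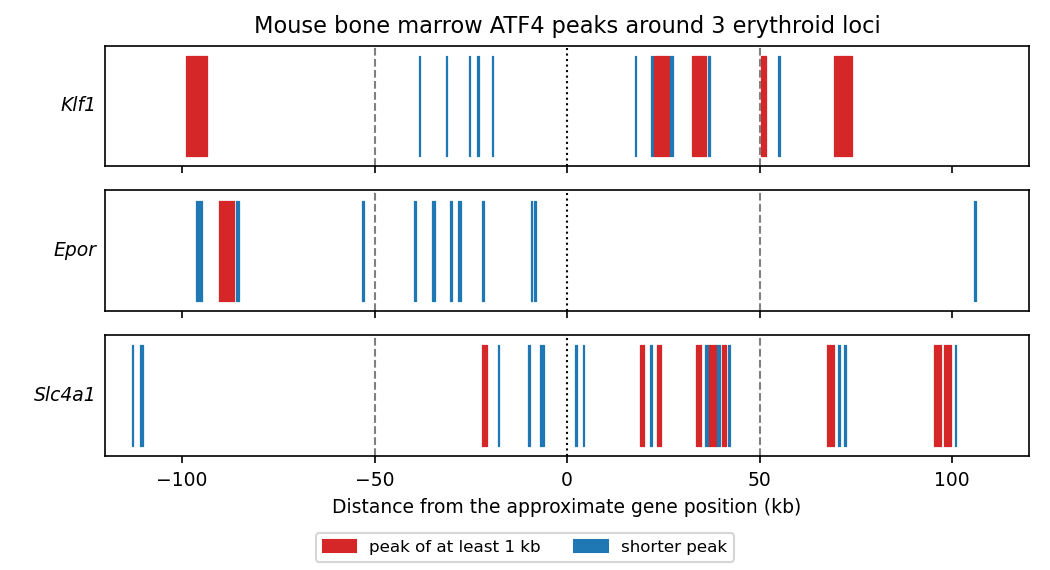
Mouse bone marrow ATF4 peaks drawn to scale within 120 kb of the approximate positions of Klf1, Epor and Slc4a1 (dotted line, x axis in kb), with peaks of at least 1 kb in red, shorter ones in blue and the limits of the 100 kb windows as dashed lines. The Slc4a1 window holds 15 peaks on both sides, the Klf1 window 11 around a gap of 36.9 kb, and the Epor window 7 on the low-coordinate side only.

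Within 20 kb of the approximate position, a distance closer to that of the gene windows in KG1a, the centres of 6 peaks lay near Slc4a1, 2 near Klf1 and 2 near Epor. Chromosomes 11, 8 and 9 held 43.2, 35.9 and 39.6 peaks per Mb on average, and no share of windows this narrow was computed. The counts within 20 kb are therefore not called high or low. The widest peaks within 20 kb measured 1040 bp at Slc4a1, 317 bp at Klf1 and 360 bp at Epor. The wide peaks of the Klf1 window were therefore all farther than 20 kb from its position. Over the 33 peaks together the median width was 603 bp, against 544 bp in the whole mouse list, and 8 of them (24.2%) were at least 1 kb wide, the same share as in the list (24.2%). In the wider surroundings, the megabases around Klf1 and Epor held 70 and 55 peaks, where the median megabases of chromosomes 8 and 9 held 34 and 37.

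**Figure D4:**
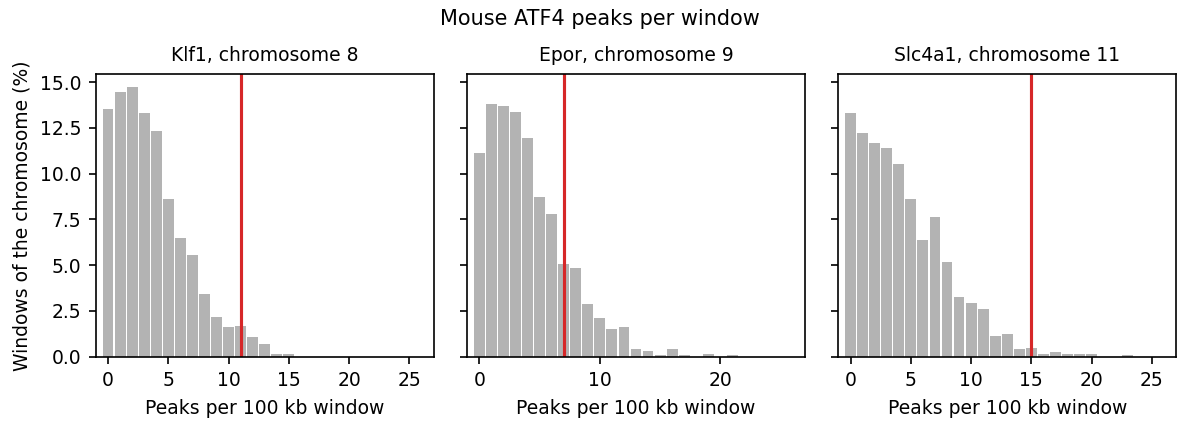
Share in % of the fixed 100 kb windows of mouse chromosomes 8, 9 and 11 (y axis) that held each number of ATF4 peaks (x axis), with the number in the window centred on Klf1, Epor or Slc4a1 as a red line. The lines stand at 11, 7 and 15 peaks, above chromosome medians of 3, 3 and 4.

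Side by side, the 3 genes placed in both species had 0 KG1a peaks in the gene span plus 20 kb. In mouse, 11, 7 and 15 peaks lay within 50 kb of Klf1, Epor and Slc4a1, and 2, 2 and 6 within 20 kb. With a flank of 50 kb, SLC4A1 had a KG1a peak. At a flank of 20 kb 3.98% of all genes had a KG1a peak, whereas 86.5 to 88.9% of the 100 kb windows on the 3 mouse chromosomes held a peak. Among the 7 genes SLC4A1 had the shortest distance to a KG1a peak, 47.9 kb, but that peak lay 0.325 kb from ATXN7L3. Among the 3 mouse loci Slc4a1 had the most peaks, in a megabase that held 101. These ranks rest on unlike measures and are not read as a shared trait of the gene. Since the mouse list is far longer and comes from another species and another cell source, with unknown depth in each, no difference between the sources was tested.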

How the data were processed

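ATF4 ChIP and input libraries, 1 of each per source, were represented by 1 peak list per source as deposited by the authors, each with chromosome, start and end in bases. The submitters' processing notes name the builds GRCh38 and GRCm38 and the tools Bowtie2, MACS2, deepTools and CASAVA 1.4, without a peak threshold. Starts were read as counted from 0 and are printed from 1. KG1a peaks were placed against RefSeq genes of GRCh38.p14 (20037 protein-coding genes), with 1 base of overlap as the minimum. Mouse gene spans were not used here. Klf1, Epor and Slc4a1 were placed by approximate positions given to 0.01 Mb, and chromosome length was taken as the last peak end. Transcription starts and sequences came from the RefSeq promoter table. Since each group has 1 library, values are set beside all genes or all windows without a test. The 7 genes, the 71 further genes and the motifs were chosen with earlier results of these data known. The rule for names took all 7 genes and each further gene with a peak in its window. The other genes of the 71 named were chosen after their values were seen. The code was tested on simulated data. Python 3.11.15, pandas 2.3.3 and NumPy 2.4.6 were used.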

Additional observations from a re-analysis of the deposited data

How the results depend on the processing

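No paired analysis was possible because each group holds 1 library. Windows, minimum overlap and peak width were varied. With flanks of 0 and 5 kb, with at least 50% of a peak inside the window and in the widest 25% of the list, 0 of the 7 erythroid genes had a KG1a peak; with 50 and with 100 kb the count was 1, SLC4A1. For the 71 further genes the count of 5 became 3 with flanks of 0 and 5 kb, 7 with 50 kb and 8 with 100 kb. It became 1 in the widest 25%. Of all protein-coding genes, 2.26, 2.77, 6.25 and 9.93% had a peak with flanks of 0, 5, 50 and 100 kb, and 1.12% in the widest 25%. In the widest 25% the nearest peak lay 25623 kb from TFRC, 1921 kb from SLC4A1 and 3023 kb from BCL11A, while the other 4 genes kept their nearest peak. Within 25 kb of the approximate mouse positions there were 5 peaks at Klf1, 3 at Epor and 9 at Slc4a1, and within 100 kb there were 12 at Epor. Within 20 kb, a width added after the data were seen, there were 2, 2 and 6 peaks, and covered shares were 1.57% at Klf1 and 1.75% at Epor. With peaks of at least 1 kb alone there were 2 at Klf1, 0 at Epor and 6 at Slc4a1, covering 7.47, 0 and 7.24%. The causes were not tested, except that narrower windows and fewer peaks lower a count by construction. The neighbourhood counts within 1 Mb were also added after the data were seen. Unknown depth limits every count of 0.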
